A study of Mus musculus with 8 samples.

Results

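Integrins and the other receptors that bind extracellular matrix were examined in stromal cells from small-intestinal ulcers of mice. The set held 31 genes: most alpha and beta chains of integrins, the 4 syndecans, the 2 discoidin domain receptors, Cd44, Cd47 and Dag1. The integrin chains Itga2b, Itgad, Itgae and Itgax were not members. Members were taken by gene symbol from a list of these families, out of 53801 gene identifiers in the deposited count table. Matching by symbol used no measured values, but the list was chosen with earlier results of these data known. One symbol, Itgam, stood on a second identifier as well. The libraries were 4 of YFP-positive and 4 of YFP-negative stromal cells, sorted by flow cytometry as CD45-negative and CD31-negative, that is without the surface markers of leukocytes and endothelium. Mice of both groups carried the LTβRYFP reporter and had been given indomethacin, a non-steroidal anti-inflammatory drug that ulcerates the small intestine. No library of untreated mice was analysed here, so the groups differ in the reporter and share the treatment. The labels state neither age nor strain, nor how many mice stand behind a library, nor how the reporter follows the lymphotoxin beta receptor.

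Integrins are surface receptors made of 1 alpha and 1 beta chain, and the pair decides what the receptor binds. One group of alpha chains binds collagen, another laminin, and a further group binds ligands with an RGD tripeptide such as fibronectin and vitronectin. The chains found mostly on leukocytes give receptors that bind partners on other cells. Inside the cell the beta chains recruit talin, kindlin and vinculin and so tie the matrix to actin. Integrins that pair the alphav chain with Itgb6 or Itgb8 also release active TGF-beta from its latent complex. Syndecans are transmembrane heparan sulphate proteoglycans that act beside integrins, discoidin domain receptors are receptor tyrosine kinases for collagen, CD44 binds hyaluronan and dystroglycan binds laminin. In the gut, fibroblasts, pericytes and smooth muscle use these receptors to hold, pull on and remodel the matrix of the lamina propria.

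In YFP-positive compared with YFP-negative cells, Itgb3, the beta chain of the vitronectin receptor, rose 1.4-fold and Sdc1 rose 1.22-fold. Cd47, a receptor for thrombospondin-1 that also carries the "do not eat me" signal to phagocytes, fell to 0.789 of its YFP-negative level. None of the other 27 members that could be tested passed the threshold. These calls come from edgeR's quasi-likelihood test with the replicate number of the libraries as a block and Benjamini-Hochberg adjustment over 15945 genes, at an adjusted p of 0.05 or below. Throughout, "rose" and "fell" are used of genes that passed it. Without the block edgeR called 0 of 15945 genes (0.00%) and 0 members. At an unadjusted p of 0.05 that fit took 325 genes (2.04%; 0.978% higher and 1.06% lower) and 1 member, Itga6, which was higher, and DESeq2 and limma voom without the block also called 0 members (2 and 0 of all genes). With the block, 111 genes rose (0.696%) and 253 fell (1.59%), a split that scaling by library size alone turned to 212 and 153 while moving the median log2 fold change of all genes to 0.09. The 2 members that rose and the 1 that fell, of 30, stand against 2.28% of all genes called in either direction. The authors' deposited table calls 496 of 16502 genes (3.01%) at the same threshold, and among the members Itgb3, Sdc1 and Cd47. The median log2 fold change over the 30 members was 0.03, and 0.00 over all genes tested. In bulk samples like these, fewer cells of a type and less RNA per cell cannot be told apart.

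**Figure D1:**
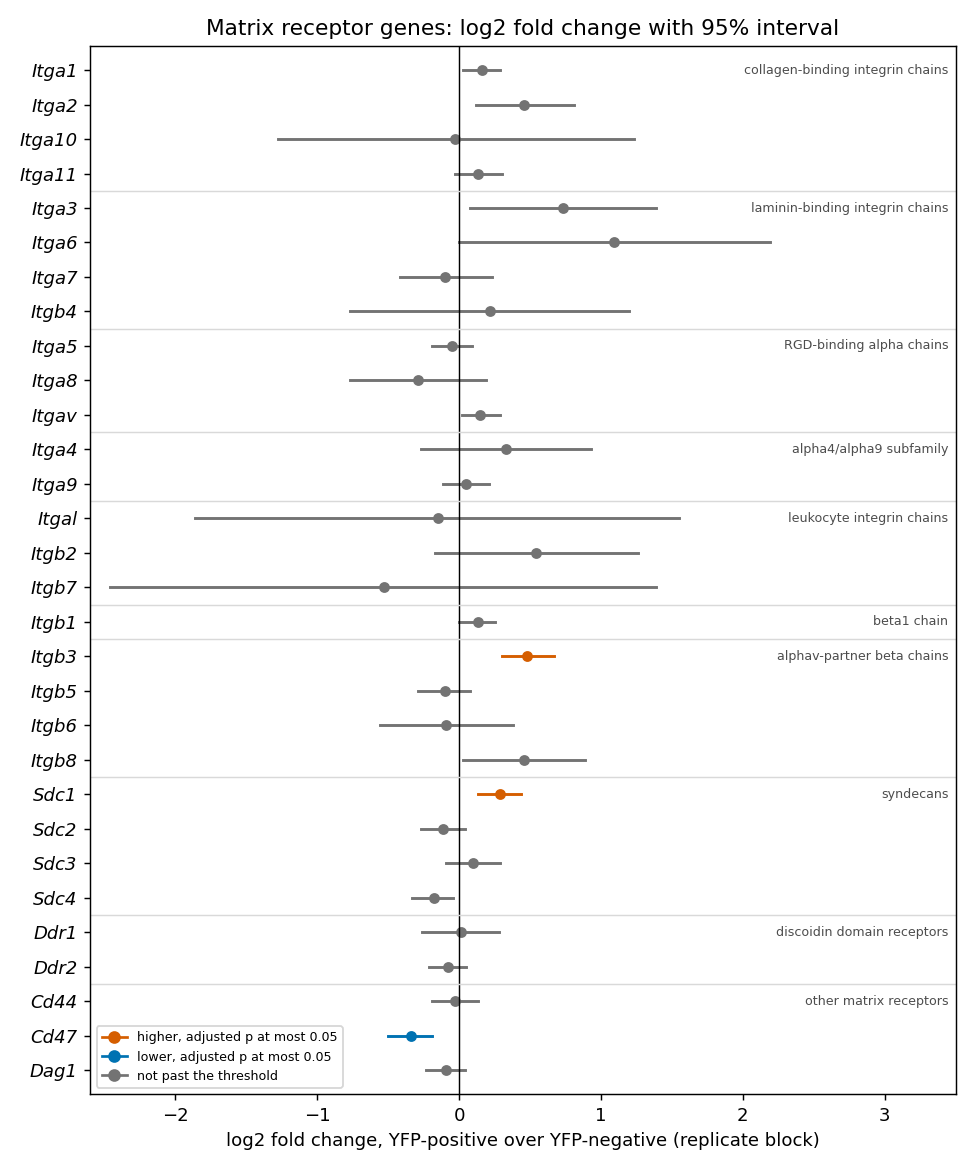
Log2 fold change of each of the 30 tested members, YFP-positive over YFP-negative, from edgeR with the replicate number as a block (horizontal axis), ordered by role; points are estimates and lines are 95% confidence intervals. Itgb3 (0.48) and Sdc1 (0.29) lie above 0 and Cd47 (-0.34) below it with an adjusted p of 0.05 or below; the intervals of Itgal and Itgb7 span more than 3 log2 units.

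Itgb3 (ENSMUSG00000020689, GRCm38 chr11:104608000-104670476, plus strand) had 167, 89.2, 129 and 209 CPM (counts divided by the library's effective size in units of 1e+06 reads, after TMM scaling) in YFP-positive libraries 1 to 4. The YFP-negative libraries 1 to 4 had 107, 79.2, 99.5 and 127 CPM. The value was higher in YFP-positive cells in each of the 4 pairs, while the groups overlapped because both libraries numbered 2 were low. Means were 149 ± 51.6 CPM in YFP-positive and 103 ± 19.6 CPM in YFP-negative cells (SD, n = 4 each). The log2 fold change with the block was 0.48 (SE 0.0881, 95% interval 0.30 to 0.67), with an adjusted p of 0.00742 by edgeR. In the authors' deposited table the log2 fold change is 0.48 and the adjusted p 4.8e-04. Leaving out the pair numbered 1 or 4, edgeR's adjusted p with the block was 0.0532 or 0.0578. On platelets this chain pairs with the product of Itga2b, which averaged 3.42 ± 1.21 CPM in YFP-positive and 5.22 ± 1.54 CPM in YFP-negative cells. The summed CPM of 6 platelet and megakaryocyte markers, Itga2b among them, was 5.26 to 8.36 in YFP-positive and 6.46 to 12.4 in YFP-negative cells. The sum was lower in YFP-positive cells in 4 of 4 pairs, with Gp9 at 0 in all 8 libraries. Of the 3 tested, 1 went the other way, Pf4, at 1.74 ± 0.716 CPM in YFP-positive and 1.15 ± 0.539 CPM in YFP-negative cells. Pf4 was higher in 4 of 4 pairs (log2 fold change 0.64, adjusted p 0.801 by edgeR with the block). The part of platelets in the Itgb3 result was not tested. The summed CPM of 9 smooth muscle markers moved with Itgb3, at 666 to 1300 in YFP-positive and 574 to 914 in YFP-negative cells, higher in 4 of 4 pairs, and its part in the result was not tested.

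Sdc1 (ENSMUSG00000020592, chr12:8771323-8793715, plus strand) had 160, 156, 221 and 117 CPM in YFP-positive libraries 1 to 4. It had 116, 128, 187 and 104 CPM in YFP-negative libraries 1 to 4. Each pair had its higher value in the YFP-positive library, and the groups overlapped widely, since the pair numbered 3 lay above the other pairs. Means were 163 ± 42.9 CPM in YFP-positive and 134 ± 36.6 CPM in YFP-negative cells (SD, n = 4 each). The log2 fold change with the block was 0.29 (SE 0.0711, 95% interval 0.13 to 0.44) with an adjusted p of 0.0482 by edgeR, close to the threshold. The authors' deposited table has 0.28 with an adjusted p of 0.0264. The call was lost when any pair was left out, with edgeR's adjusted p between 0.0748 and 0.227, and with RLE in place of TMM factors (0.0587). Syndecan-1 is also the syndecan of epithelium and plasma cells. Epithelial markers summed to 11.5 to 166 CPM over 11 genes in YFP-positive and 17.5 to 38.1 CPM in YFP-negative cells, higher in 2 of 4 pairs. The sum of 13 leukocyte markers was 25.2 to 77.5 CPM in YFP-positive and 17.1 to 38.1 CPM in YFP-negative cells, higher in 4 of 4 pairs. Of the 11 leukocyte markers tested, 9 had a log2 fold change with the block above 0, and Cd79a (-0.53) was below it. The part of epithelial cells or leukocytes in the Sdc1 result was not tested.

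Cd47 (ENSMUSG00000055447, chr16:49800533-49915010, plus strand) had 161, 189, 149 and 156 CPM in YFP-positive libraries 1 to 4. In YFP-negative libraries 1 to 4 it had 230, 218, 171 and 213 CPM. The YFP-positive value was the lower of each pair, and 3 of the 4 YFP-positive libraries lay below every YFP-negative one. Means were 164 ± 17.7 CPM in YFP-positive and 208 ± 25.3 CPM in YFP-negative cells (SD, n = 4 each). With the block the log2 fold change was -0.34 (SE 0.0731, 95% interval -0.50 to -0.19) with an adjusted p of 0.0205 by edgeR. The authors' deposited table gives -0.35 and an adjusted p of 0.00164. The call was lost without pair 1 (0.122), 3 (0.0593) or 4 (0.122), and with scaling by library size alone (0.107). Thbs1, the gene of its ligand thrombospondin-1, fell as well (log2 fold change -0.39, adjusted p 0.0426 by edgeR with the block). Of 8 markers shared by fibroblasts 5 fell, Col1a1, Col1a2, Col3a1, Dcn and Lum, while Pdgfra (log2 fold change 0.00), Pdpn (-0.11) and Thy1 (-0.38) did not pass. The 8 genes summed to 21700 to 35200 CPM in YFP-positive and 26400 to 52100 CPM in YFP-negative cells, lower in 4 of 4 pairs. Their part in the Cd47 result was not tested.

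**Figure D2:**
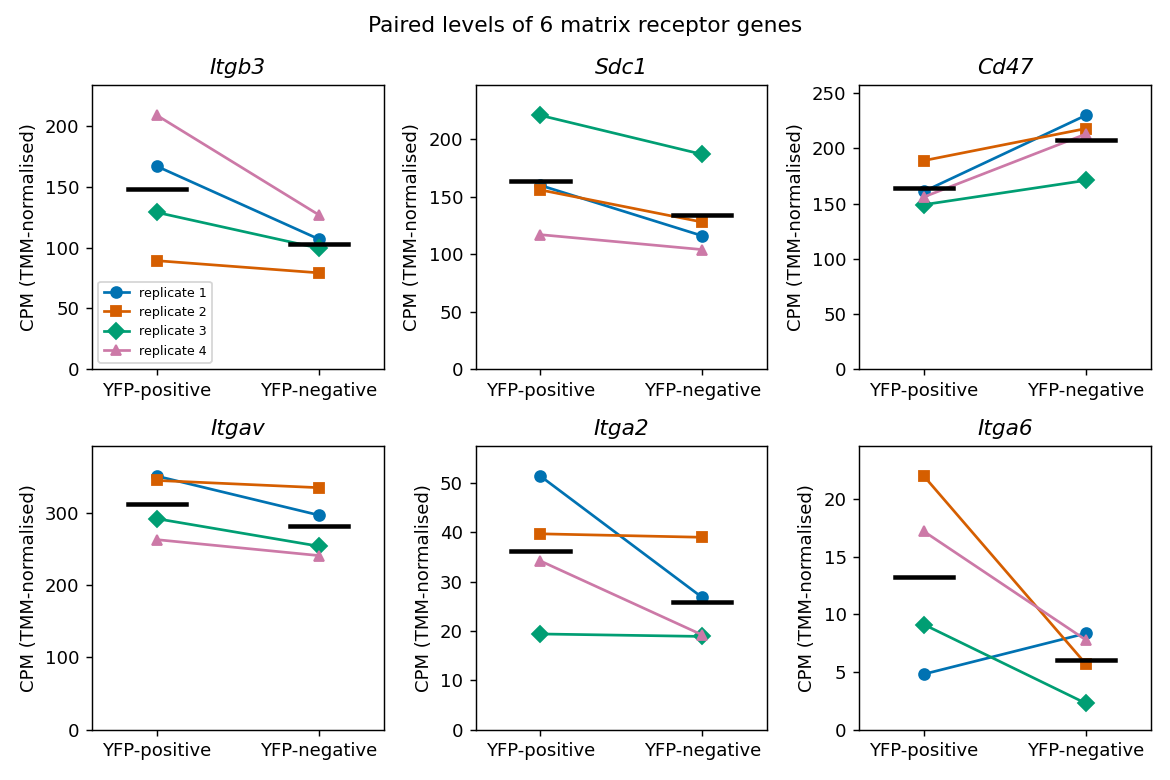
CPM (vertical axis, linear from 0) of Itgb3, Sdc1, Cd47, Itgav, Itga2 and Itga6 in YFP-positive libraries (left) and YFP-negative libraries (right), with a line joining libraries of the same number and a black bar at each group's mean. Itgb3 and Sdc1 are higher and Cd47 is lower in YFP-positive cells in all 4 pairs, and the distances between numbers are often wider than those within a pair.

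The start regions of Sdc1 and Cd47 are given because these are called members with a promoter window in the table used. Each is 250 bases before to 50 after a RefSeq transcript start in GRCm38.p6, on the plus strand, with the GC box (GGGCGG on either strand, a site of Sp1-type factors) in capitals. The Sdc1 window is chr12:8771146-8771445 and the first Cd47 window is chr16:49855404-49855703, which lies inside the longer Cd47 gene of GENCODE M21.
Sdc1: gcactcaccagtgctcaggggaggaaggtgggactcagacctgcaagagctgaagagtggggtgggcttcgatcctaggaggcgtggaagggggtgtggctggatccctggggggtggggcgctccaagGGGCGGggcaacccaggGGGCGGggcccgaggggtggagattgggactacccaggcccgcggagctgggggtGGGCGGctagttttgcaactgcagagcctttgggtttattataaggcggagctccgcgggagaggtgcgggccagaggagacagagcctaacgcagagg
Cd47: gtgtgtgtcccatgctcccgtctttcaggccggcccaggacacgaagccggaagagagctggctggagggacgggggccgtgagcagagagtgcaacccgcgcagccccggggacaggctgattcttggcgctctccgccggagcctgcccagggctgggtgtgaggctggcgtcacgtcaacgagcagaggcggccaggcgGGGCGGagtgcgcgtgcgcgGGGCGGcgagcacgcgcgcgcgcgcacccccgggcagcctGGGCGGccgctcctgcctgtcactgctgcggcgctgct
GC boxes began at -121, -104 and -49 in the Sdc1 window and at -48, -28 and 12 in the Cd47 window, with the transcript start as 0. Of 31 windows found for 24 members, 64.5% held a GC box, against 35.7% of 32851 RefSeq promoters of the same length. Some members had several windows, which can overlap, and 15 of the 24 members had a GC box in a window. The RefSeq promoters were not limited to genes tested here, so the shares are a description only. The AP-1 site TGANTCA stood in 9.68% of member windows and 7.81% of all, and the TATA box TATAAA in 3.23% of member windows and 13.6% of all. An NF-kB site (GGGRNWYYCC) stood in 6.45% of member windows and 4.51% of all. Motifs were searched on both strands, without regard to overlap between them, and a match is a description of letters and not of a factor's binding.

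The levels of the members per kilobase of exon covered a wide range. Itgb1, the beta chain shared by the collagen, laminin and fibronectin receptors, had 178 CPM per kilobase in YFP-positive and 163 in YFP-negative cells. Sdc4, which joins integrins in focal adhesions, had 162 CPM per kilobase in YFP-positive and 181 in YFP-negative cells. Itga5, the alpha chain of the fibronectin receptor, followed at 66.3 and 68.9, and Cd44 at 56.6 and 58.7, in YFP-positive and YFP-negative cells. A total of 15 genes, down to Itga11, exceeded 10 CPM per kilobase in both groups. Those below 1 in both groups were Itgb4, Itga4, Itgb7, Itga10 and Itgal. In 28 of 29 steps down this order the ranges of neighbouring genes over the 8 libraries overlapped. The exception was the step between Itgb1 (150 to 191) and Itga5 (42.0 to 89.4).

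**Figure D3:**
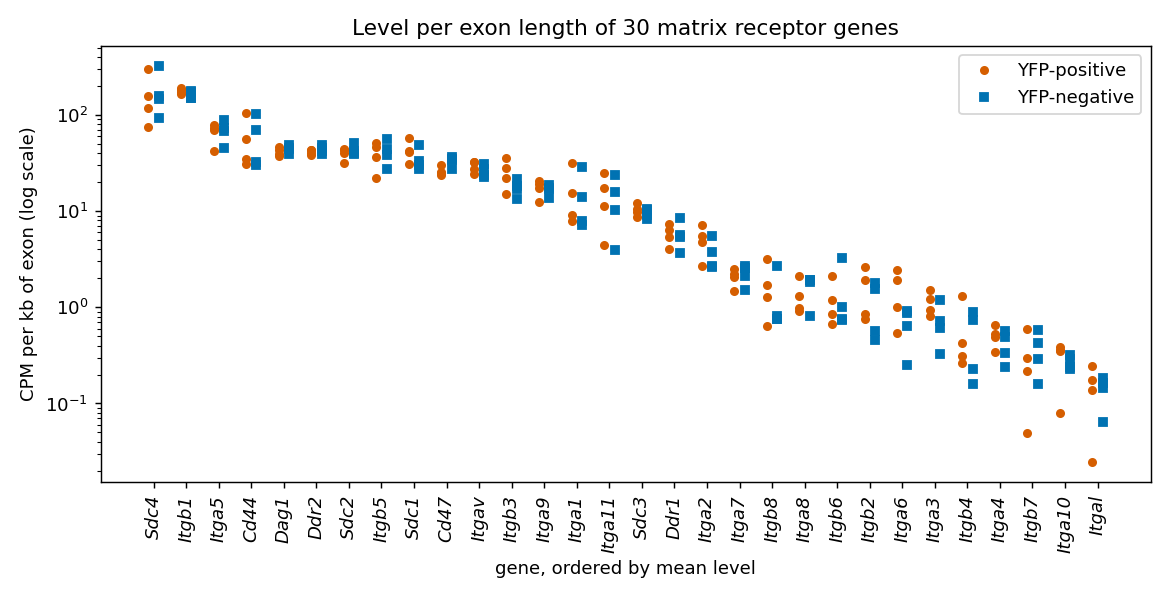
CPM per kilobase of exon (vertical log axis) of the 30 tested members in each YFP-positive and YFP-negative library, ordered along the horizontal axis by level over all 8 libraries. Itgb1 and Sdc4 stand at the top and Itgal at the bottom, and points of the groups overlap for every member.

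The collagen-binding chains were Itga1, Itga2, Itga10 and Itga11, each of which pairs with Itgb1, and none passed the threshold. Itga1, which prefers basement membrane collagen, had 147, 587, 289 and 170 CPM in YFP-positive libraries 1 to 4. The YFP-negative libraries had 135, 531, 258 and 146 CPM, so that the YFP-positive library was higher in every pair by little beside the distance between pairs. Its log2 fold change with the block was 0.16 (95% interval 0.03 to 0.29, adjusted p 0.267 by edgeR). Itga11, the fibrillar collagen receptor of fibroblasts, had 89.1, 22.9, 58.0 and 129 CPM in YFP-positive and 82.0, 20.0, 52.4 and 121 CPM in YFP-negative libraries 1 to 4. It too was higher in 4 of 4 pairs, with a log2 fold change of 0.13 (-0.03 to 0.30, adjusted p 0.616). Itga2 had 51.4, 39.7, 19.4 and 34.2 CPM in YFP-positive and 26.8, 39.0, 18.9 and 19.2 CPM in YFP-negative libraries, which were nearly equal in pairs 2 and 3. Its log2 fold change with the block was 0.46 (0.12 to 0.81, adjusted p 0.222), and of the other settings run it passed in 1, which kept every gene with at least 1 count (0.018). Itga10 was scarce, at 1.52 ± 0.740 CPM in YFP-positive and 1.41 ± 0.226 CPM in YFP-negative cells (SD, n = 4 each). Itga10 shares 33.53% of its exon length with the predicted gene Gm42957 on the same strand, which makes its count uncertain.

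Of the laminin-binding chains Itga3, Itga6, Itga7 and Itgb4, none passed the threshold. Itga6 pairs with Itgb1 or, in the hemidesmosomes of epithelium, with Itgb4. It had 4.82, 22.0, 9.12 and 17.2 CPM in YFP-positive and 8.35, 5.71, 2.29 and 7.79 CPM in YFP-negative libraries 1 to 4. The YFP-positive library was higher in pairs 2, 3 and 4 and lower in pair 1. The log2 fold change with the block was 1.09 (SE 0.467, adjusted p 0.451 by edgeR), the highest of the members. It passed the threshold with limma voom and the block (0.0297), with every gene of at least 1 count kept (0.00145) and without pair 1 (0.00356). The libraries with the most Itga6, YFP-positive 2 and 4, had the second highest and the highest epithelial sums of their group, 35.6 and 166 CPM, against 18.4 and 11.5 CPM in YFP-positive 1 and 3. Endothelial markers summed to 62.4 and 137 CPM in YFP-positive 2 and 4 and to 31.3 and 62.5 CPM in YFP-positive 1 and 3. The part of either in the Itga6 values was not tested. Itga3, the chain for laminin-332 and laminin-511, had 5.37, 4.63, 7.0 and 8.71 CPM in YFP-positive and 3.51, 1.87, 6.81 and 4.15 CPM in YFP-negative libraries. It was higher in 4 of 4 pairs with a log2 fold change of 0.73 (0.08 to 1.39, adjusted p 0.361 by edgeR with the block). Itga7, the laminin receptor of muscle, had 16.6 ± 3.41 CPM in YFP-positive and 17.9 ± 4.23 CPM in YFP-negative cells (SD, n = 4 each), and was lower in 4 of 4 pairs by a log2 fold change of -0.10 (-0.42 to 0.23). Itgb4 had 4.02 ± 3.43 CPM in YFP-positive and 3.57 ± 2.59 CPM in YFP-negative cells.

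Among the RGD-binding alpha chains, Itgav was higher in YFP-positive cells in all 4 pairs. It had 351, 345, 292 and 263 CPM in YFP-positive and 297, 335, 254 and 241 CPM in YFP-negative libraries 1 to 4. Its log2 fold change with the block was 0.15 (0.02 to 0.29, adjusted p 0.338 by edgeR). Itga5 had 345, 392, 364 and 207 CPM in YFP-positive and 364, 441, 333 and 222 CPM in YFP-negative libraries, lower in 3 pairs and higher in pair 3. With a log2 fold change of -0.05 (-0.19 to 0.09, adjusted p 0.878), its interval reached no further than 0.19 from 0. Itga8, the receptor chain for nephronectin in kidney development, had 9.82 ± 3.97 CPM in YFP-positive and 12.0 ± 3.99 CPM in YFP-negative cells (SD, n = 4 each; log2 fold change -0.29, adjusted p 0.748). Of the alpha4/alpha9 subfamily, Itga9, a receptor chain for tenascin-C and VCAM-1, had 134 ± 26.9 CPM in YFP-positive and 128 ± 16.4 CPM in YFP-negative cells, with a log2 fold change of 0.05 (-0.11 to 0.21). Itga4, the other chain that binds VCAM-1, had 7.05 ± 1.78 CPM in YFP-positive and 5.68 ± 2.06 CPM in YFP-negative cells, with a log2 fold change of 0.33 (-0.27 to 0.93).

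The beta chains that pair with alphav, apart from Itgb3, did not pass the threshold. Itgb5, which also makes a vitronectin receptor, had 183, 79.3, 129 and 165 CPM in YFP-positive and 156, 98.2, 135 and 200 CPM in YFP-negative libraries 1 to 4. It was higher in pair 1 and lower in the others, with a log2 fold change of -0.10 (-0.29 to 0.08, adjusted p 0.768 by edgeR with the block). The ratio of Itgb3 to Itgb5 per kilobase was 0.549, 0.677, 0.602 and 0.763 in YFP-positive and 0.413, 0.486, 0.444 and 0.382 in YFP-negative libraries. The ratios of the groups did not overlap, and since the ratio was picked after its values were seen it carries no test. Itgb8 had 6.99, 35.1, 14.1 and 18.8 CPM in YFP-positive and 8.29, 29.8, 8.33 and 8.96 CPM in YFP-negative libraries, with a log2 fold change of 0.46 (0.03 to 0.89, adjusted p 0.397). Itgb6, the epithelial partner of alphav, had 8.59 ± 4.55 CPM in YFP-positive and 10.2 ± 8.58 CPM in YFP-negative cells (SD, n = 4 each; log2 fold change -0.09, adjusted p 0.955).

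Itgb1 had 778, 736, 678 and 708 CPM in YFP-positive libraries 1 to 4, and 710, 719, 614 and 617 CPM in YFP-negative libraries 1 to 4. It was higher in the YFP-positive library of each pair and had the narrowest spread between pairs of all members, a 1.15-fold range of pair means. The log2 fold change with the block was 0.13 (0.00 to 0.25, adjusted p 0.45 by edgeR). Per kilobase, Itgb1 was 1.01 to 1.32 times the sum of the alpha chains other than the leukocyte ones in YFP-positive libraries and 0.971 to 1.2 times in YFP-negative libraries. That sum includes Itgav, which also pairs with Itgb3, Itgb5, Itgb6 and Itgb8, so the ratio does not measure a balance of receptor chains. Itga5 made up 31.9% to 49.5% of that alpha sum in YFP-positive and 35.7% to 49.5% in YFP-negative libraries, with the lowest share in library 4 of either group. Itga11 made up 19.1% in YFP-positive 4 and 18.7% in YFP-negative 4, against 2.49% in YFP-positive 2 and 2.15% in YFP-negative 2. Across the replicate numbers both shares spanned a wider range than between the YFP-positive and YFP-negative library of any number.

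Leukocyte integrin chains were close to the lower end of the data, in cells sorted as CD45-negative. Itgb2, the beta chain of LFA-1 and Mac-1, had 5.82, 7.94, 2.32 and 2.61 CPM in YFP-positive and 5.45, 4.69, 1.38 and 1.72 CPM in YFP-negative libraries 1 to 4. It was higher in 4 of 4 pairs, with a log2 fold change of 0.54 (-0.17 to 1.26, adjusted p 0.644 by edgeR with the block). Itgal, the alpha chain of LFA-1, had 93 counts in all in YFP-positive and 76 in YFP-negative libraries, and Itgb7, the beta chain of the gut homing receptor, had 86 in YFP-positive and 86 in YFP-negative libraries. Itgam, the alpha chain of Mac-1, had 0 counts in all 8 libraries and was not tested. Its second identifier, named Gm49368 in GENCODE M21, had 0 counts in the 4 YFP-positive libraries and 5, 15, 12 and 0 in YFP-negative libraries 1 to 4. The 2 identifiers share 3450 exon bases, 68.67% of the exon length of Itgam, on the same strand, so that how reads from the shared bases were counted is not known, and a level of 0 does not show that the gene was silent. Leukocyte markers summed to 25.2 to 77.5 CPM over 13 genes in YFP-positive and 17.1 to 38.1 CPM in YFP-negative cells, higher in 4 of 4 pairs, with none at 0 in all libraries. Neutrophil markers, 8 genes, summed to 29.9 to 80.8 CPM in YFP-positive and 31.2 to 70.0 CPM in YFP-negative cells. Their sum was higher in YFP-positive cells in 1 of 4 pairs, and Ly6g was at 0 in all libraries. Most of it was Mmp8 and Mmp9, with Mmp8 at 34.3 ± 21.2 CPM in YFP-positive and 32.5 ± 15.4 CPM in YFP-negative cells. Of the 5 tested, 4 had a log2 fold change with the block above 0 (median 0.36), and none passed the threshold. Ptprc, the CD45 gene, averaged 5.52 ± 4.68 CPM in YFP-positive and 2.60 ± 1.57 CPM in YFP-negative cells, and the part of these cells in the Itgb2 values was not tested.

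The syndecans other than Sdc1 did not pass the threshold. Sdc4 had 303, 759, 401 and 192 CPM in YFP-positive and 373, 828, 406 and 236 CPM in YFP-negative libraries 1 to 4. It was lower in 4 of 4 pairs, though nearly equal in pair 3, and its log2 fold change with the block was -0.18 (-0.33 to -0.04, adjusted p 0.234 by edgeR). Sdc2, the main syndecan of mesenchyme, had 141 ± 19.5 CPM in YFP-positive and 152 ± 19.6 CPM in YFP-negative cells (SD, n = 4 each; log2 fold change -0.11, -0.27 to 0.04). Sdc3 had 61.6 ± 8.97 CPM in YFP-positive and 57.3 ± 6.09 CPM in YFP-negative cells (log2 fold change 0.10, -0.09 to 0.29).

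Ddr2, which binds fibrillar collagen, had 372, 403, 357 and 404 CPM in YFP-positive and 394, 447, 366 and 418 CPM in YFP-negative libraries 1 to 4. It was lower in every pair by a small amount, with a log2 fold change of -0.08 (-0.21 to 0.05, adjusted p 0.735 by edgeR with the block), which was 0.01 with library sizes alone. Ddr1, the epithelial type, had 27.6 ± 6.92 CPM in YFP-positive and 27.9 ± 9.79 CPM in YFP-negative cells (SD, n = 4 each), with a log2 fold change of 0.01 (-0.26 to 0.28). Dag1 had 272, 240, 294 and 247 CPM in YFP-positive and 281, 249, 307 and 285 CPM in YFP-negative libraries, lower in every pair with a log2 fold change of -0.09 (-0.23 to 0.04, adjusted p 0.69). Cd44 had 381, 704, 237 and 212 CPM in YFP-positive and 468, 699, 205 and 219 CPM in YFP-negative libraries. It was lower in pairs 1 and 4 and higher in pairs 2 and 3, with a log2 fold change of -0.03 (-0.19 to 0.13, adjusted p 0.952), and 0.05 with library sizes alone.

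Counted by pairs, 9 members were higher in YFP-positive cells in 4 of 4 pairs and 5 were lower in 4 of 4, against 8.86% and 10.2% of all genes tested. The groups overlapped for each of the 30 members, and did not overlap for 1.55% of all genes (0.690% higher, 0.859% lower). The log2 fold change with the block was above 0 for 16 of 30 members and for 51.0% of all genes. At an unadjusted p of 0.05 with the block, 8 members were higher and 2 lower, against 4.69% and 6.42% of all genes. Those higher were Itgb3, Sdc1, Itga2, Itga1, Itgav, Itga3, Itgb8 and Itgb1, and those lower were Cd47 and Sdc4. The distance between replicate numbers was the larger part of the variation. For 24 members the SD of the 4 pair means exceeded the mean difference within pairs on the log2 scale, 80.0% of members and 79.9% of all genes. The pair means spanned more than 2-fold for 14 members (46.7%), against 36.3% of all genes. Itga11 spanned 5.73-fold, highest in number 4 and lowest in number 2, and Itgb8 (4.05-fold), Itga1 (3.95-fold), Sdc4 (3.72-fold) and Cd44 (3.25-fold) were highest in number 2. The pair numbered 2 was the highest or lowest of the 4 for 22 members (73.3%), as for 69.8% of all genes.

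**Figure D4:**
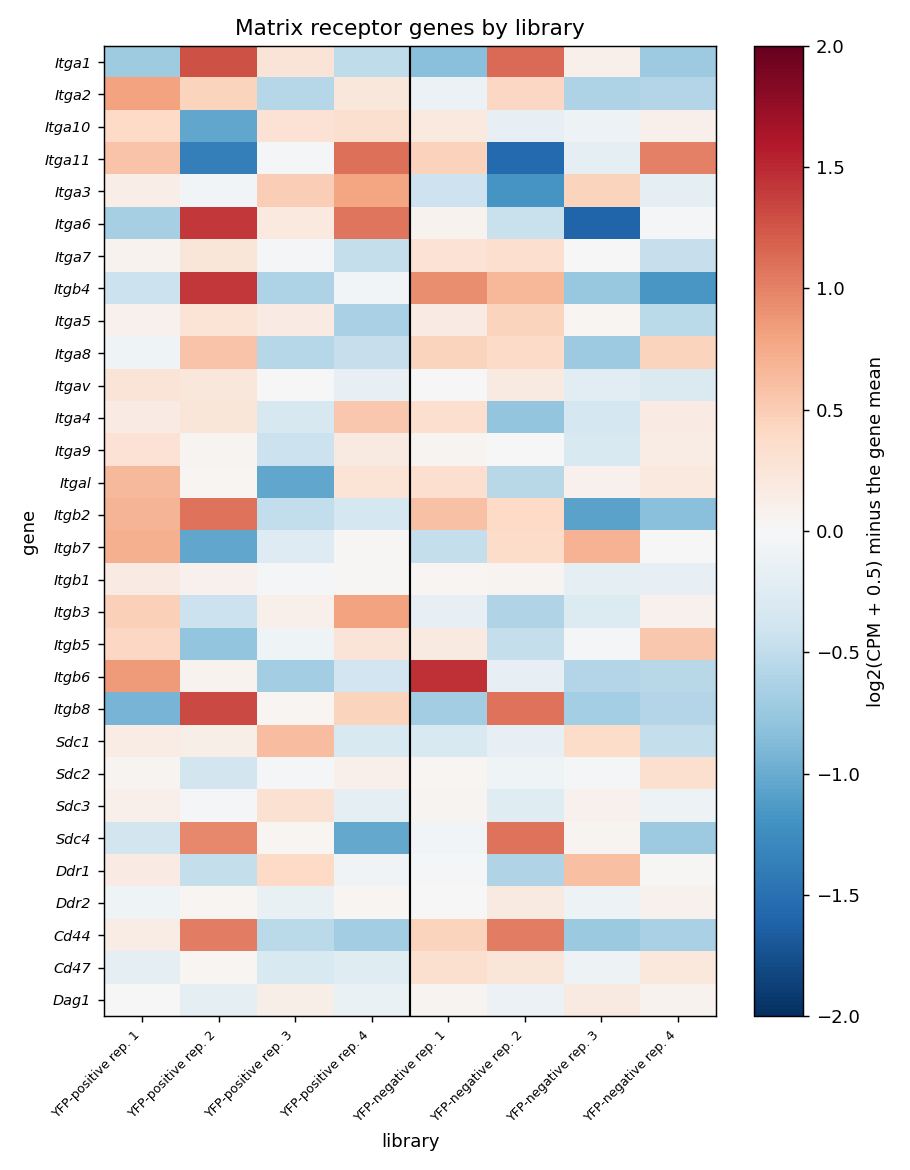
Heat map of the 30 tested members (rows, by role) in the 8 libraries (columns, YFP-positive left of YFP-negative), coloured by log2(CPM + 0.5) minus the gene's mean over all libraries. Itga1, Cd44, Sdc4 and Itgb8 are high and Itga11 low in both libraries numbered 2.

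The libraries held 12481608 to 29385718 counted reads each. On the first principal component of all genes tested (35.5% of variance) YFP-positive 2 and YFP-negative 2 lay at 78.7 and 92.5, and the other 6 between -46.2 and -12.4. Mitochondrial genes took 7.71% to 9.43% of counts in YFP-positive and 8.07% to 12.4% in YFP-negative libraries. In each pair the YFP-negative library had the higher share. The labelled cell type was checked by markers, and the 8 pan-fibroblast markers were all tested. Thy1 was scarce, at 2.7 ± 1.83 CPM in YFP-positive and 3.91 ± 3.21 CPM in YFP-negative cells (SD, n = 4 each), while Pdgfra was at 1670 ± 312 CPM in YFP-positive and 1670 ± 266 CPM in YFP-negative cells (SD, n = 4 each). Pecam1, the gene of CD31, had 28.6 ± 14.6 CPM in YFP-positive and 25.9 ± 16.3 CPM in YFP-negative cells, so transcripts of the gated marker were present in both groups. Markers of stromal cell types also moved with the reporter. With the block, 7 of 8 adventitial fibroblast and trophocyte markers fell, such as Ackr4 (log2 fold change -1.0) and Cd34 (-0.64), and 3 of 8 subepithelial fibroblast markers rose, such as Ednrb (0.59), with Foxl1 at 0 in all libraries. Adventitial markers summed to 7440 to 11100 CPM in YFP-positive and 12300 to 16900 CPM in YFP-negative cells. Subepithelial markers summed to 2310 to 4420 CPM in YFP-positive and 2010 to 5570 CPM in YFP-negative cells. The largest part of the subepithelial sum was Tnc, at 2190 ± 1250 CPM in YFP-positive and 2350 ± 1830 CPM in YFP-negative cells. Of the 7 subepithelial markers tested, 6 had a log2 fold change with the block above 0 (median 0.28). Of 9 smooth muscle markers 3 rose, including Myh11 (0.47) and Acta2 (0.41). Of 7 pericyte markers Rgs5 fell (-0.36) and Cspg4 rose (0.43), and 5 of the 6 tested had a log2 fold change above 0 (median 0.15). Their sum was 1430 to 1770 CPM in YFP-positive and 1670 to 2000 CPM in YFP-negative cells, lower in 4 of 4 pairs, and most of it was Rgs5, at 886 ± 143 CPM in YFP-positive and 1140 ± 196 CPM in YFP-negative cells. The part of these cell types in the Itgb3, Sdc1 and Cd47 results was not tested.

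Ligands and partners of the receptors were counted in the same fit. Over 7 lists of ligands, adaptors and partner receptors, 136 of 146 genes could be tested, and with the block 6 rose and 12 fell (0 without it), against 0.696% and 1.59% of all genes. Of 14 collagen chains, ligands of Itga1, Itga2, Itga11, Ddr1 and Ddr2, 5 fell and 2 rose. Col14a1, a fibril-associated collagen, fell (log2 fold change -0.63, SE 0.0699, adjusted p 1.5e-04 by edgeR), and so did the fibrillar Col3a1 (-0.48), Col1a2 (-0.38) and Col1a1 (-0.39). Those that rose were Col4a6, a basement membrane chain with 22.1, 29.8, 49.8 and 43.6 CPM in YFP-positive and 17.1, 17.0, 33.4 and 26.9 CPM in YFP-negative libraries 1 to 4, and the transmembrane Col13a1 (0.59). Col1a1, Col1a2 and Col3a1 are also among the pan-fibroblast markers. Of 15 laminin and basement membrane genes, ligands of Itga3, Itga6, Itga7 and Dag1, 2 rose and none fell. Lama1, a laminin alpha chain, rose by 0.31 on the log2 scale (SE 0.0640, adjusted p 0.0167 by edgeR). Lama3, a chain of the epithelial laminin-332, had 0.0344, 12.1, 1.04 and 8.39 CPM in YFP-positive and 0.167, 0.937, 0.101 and 0.607 CPM in YFP-negative libraries, with a log2 fold change of 3.01 (adjusted p 0.0439). It was higher in YFP-positive cells in pairs 2, 3 and 4, as Itga6 was, and lower in pair 1.

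Among 18 tested genes for RGD and other integrin ligands, 1 rose and 4 fell. Nephronectin, Npnt, the ligand of the Itga8 receptor, rose (log2 fold change 0.78, SE 0.137, adjusted p 0.00618 by edgeR with the block), with 58.9, 23.0, 85.8 and 39.5 CPM in YFP-positive and 25.6, 19.9, 53.3 and 20.4 CPM in YFP-negative libraries 1 to 4. Edil3 (-0.58), whose product binds Itgav receptors, Tgfb3 (-0.49), Thbs1 (-0.39) and the microfibril gene Fbn1 (-0.26) fell. Of 40 tested genes for integrin activators and focal adhesion proteins none rose and 1 fell, Tns3 (-0.40, adjusted p 0.00858), an adaptor that binds beta chain tails. Their median log2 fold change was 0.04. Of 12 genes for leukocyte integrin ligands and CD44 or CD47 partners, Has1, a hyaluronan synthase, fell (-0.83, adjusted p 0.0266) and none rose. None of 19 tested genes of the dystroglycan complex, including the enzymes that glycosylate dystroglycan, passed. Of 18 other matrix receptor genes, Cspg4, the NG2 proteoglycan of pericytes, rose (0.43, adjusted p 0.00803) and Gpc3, a glypican, fell (-0.52, adjusted p 0.0114).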

How the data were processed

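The deposited table listed raw counts for each gene, as whole numbers, and the authors' size-factor-normalised values rounded to whole numbers, a score used only as a check. It also held the authors' fold changes as a ratio, their log2 fold changes and p-values, per the file headers. The submitters' processing notes name cutadapt 3.4, STAR 2.7.3a, featureCounts 2.0.1, DESeq2 and GRCm38, without annotation release or strand setting. Per the labels' protocols, libraries came from a stranded low-input total RNA kit.

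Counts were tested with edgeR 4.0.16 in R 4.3.3 (filterByExpr by group, TMM, robust quasi-likelihood, two-sided, Benjamini-Hochberg), which kept 15945 genes and 30 of 31 members. The planned fit had no replicate block. CPM per kilobase divides by exon length in GENCODE M21, which holds 53706 of the 53801 identifiers. Members and lists were chosen with earlier results of these data known; all members were named by role, and from each list up to 4 called genes in each direction. A called gene of a list is one called with the block.

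The titles number the libraries 1 to 4 in both groups. Deviations from the group means correlated within equal numbers at 0.233, 0.487, 0.376 and 0.376, and at most 0.0456 between different numbers, so the numbers were taken to pair the libraries. DESeq2 1.42.0 with the block on all genes differed from the authors' log2 fold changes by at most 5e-04 over 29762 genes, and shared all 496 of their called genes. With the block, p-values weigh the group difference against the spread of differences within pairs. Without it, they weigh it against the spread between libraries of a group. The labels do not say that libraries are separate animals, so either spread may be technical. Libraries of 1 group all differed by more than sampling noise, with chi-square over its degrees of freedom at 56.4 or above.

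The scripts were tested on simulated data with added variation between replicate numbers. Without the block, edgeR recovered 0 of 100 changes of 0.5 and 0 of 100 changes of 1 on the log2 scale. With the block it recovered 42 of 100 and 84 of 100, with 6 false calls. A gene that did not pass may therefore still differ. Other settings were DESeq2, limma voom (3.58.1) with quality weights, RLE factors, library sizes alone, a filter of at least 1 count or of at least 2 CPM in 4 libraries, each with and without the block, and libraries or pairs left out in turn. Promoters are RefSeq windows in GRCm38.p6. Counts with no strand setting known leave members that overlap antisense genes (Itga4 with Cerkl by 8.04% of its exon length, and smaller shares for Ddr1, Ddr2, Itgb4, Itga7, Itga8, Itgav and Sdc3) less certain; Itgb3, Sdc1 and Cd47 overlap no other gene's exons.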

Additional observations from a re-analysis of the deposited data

Results flagged for a closer look

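In 5 of 60 groups of 4 libraries, 1 member in each, a library lay far from the other 3, where chance flags about 1 group in 20. Itga10 had 0.414 CPM in YFP-positive 2, against 1.8 to 2.0 CPM in the other YFP-positive libraries, and Itgb4 had 9.12 CPM in that library, against 1.84 to 2.97. Itga8 had 6.0 CPM in YFP-negative 3, against 13.5 to 14.2 CPM in the other YFP-negative libraries. Itgb6 had 23.0 CPM in YFP-negative 1, against 5.23 to 7.16. Itgb8 had 29.8 CPM in YFP-negative 2, against 8.29 to 8.96, and the YFP-positive library of that number was likewise the highest of its group for Itgb8. None of these 5 members passed the threshold with or without the block.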

How the results depend on the processing

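The fit without the block called 0 members, 0 pathway genes and 0 genes in all under each setting and with each library left out, except that DESeq2 called 2 genes in all. The replicate block changed this, with 3 members, 18 pathway genes and 364 genes called. Under the block the counts of members, pathway genes and all genes were 3, 29 and 525 with DESeq2, 4, 33 and 616 with limma voom, and 2, 18 and 364 with RLE factors. They were 2, 27 and 365 with library sizes alone, 5, 29 and 673 with every gene of at least 1 count, 3, 20 and 416 with at least 2 CPM in 4 libraries, and 3, 30 and 496 with DESeq2 on all genes, a setting chosen after seeing the data. With a pair left out under the block, 1, 2, 1 and 0 members, 12, 17, 6 and 9 pathway genes and 194, 426, 157 and 167 genes in all were called without pairs 1, 2, 3 and 4. Itgb3, Sdc1 and Cd47 kept their direction in every setting run, and passed in 9, 6 and 7 of 11 other settings with the block. Small or scarce members changed sign, none of them called. With the block alone, Itga10 stood at -0.03, Itgal at -0.15 and Ddr1 at 0.01 on the log2 scale. With other settings and the block Itgal was at -0.16 (DESeq2, RLE), -0.19 (limma voom) and -0.06 (library sizes), and Ddr1 at 0.0 (DESeq2, RLE) and 0.1 (library sizes). Limma voom without the block put Itga5 at 0.03, Itga9 at -0.02 and Itgal at -0.76. Library sizes alone put Itga5 at 0.03, Itgb5 and Ddr2 at 0.01, Ddr1 at 0.06 and Cd44 at 0.03, and with the block Cd44 at 0.05. With the block and a pair left out, sign changes reached -0.13, -0.15 and -0.24 for Itga10, -0.26, -0.38 and -0.53 for Itgal, 0.04 and 0.09 for Ddr1, 0.06 for Cd44, -0.01 and -0.17 for Itgb4, 0.1 for Itgb6, 0.13 for Itgb7 and -0.02 for Itga9. Without the block and with 1 library left out, values ran from -0.52 to 0.36 for Cd44, -0.19 to 0.23 for Ddr1, -0.40 to 0.73 for Itga1, -0.03 to 0.42 for Itga10, -0.28 to 0.54 for Itga11, -0.21 to 0.11 for Itga5 and -0.25 to 0.02 for Itga7. They ran from -0.02 to 0.20 for Itga9, -0.32 to 0.42 for Itgal, -0.61 to 0.61 for Itgb4, -0.24 to 0.11 for Itgb5, -0.65 to 0.54 for Itgb6, -0.92 to 0.02 for Itgb7, -0.05 to 1.13 for Itgb8 and -0.62 to 0.29 for Sdc4. The cause of these changes was not tested. Depth limits the scarce chains: Itgal, Itgb7 and Itga10 had at most 58 counts in any library.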
